A study of Mus musculus with 4 samples.

Results

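The 8 genes described here encode transcription factors that steer effector lymphocytes and myeloid cells: Tbx21, Eomes, Prdm1, Zeb2, Id2, Batf, Irf4 and Irf8. They were chosen by gene symbol, and each of the 8 symbols was found once among the 27998 genes of the feature lists. The data are UMI counts (a UMI marks 1 original RNA molecule) from droplet-based 10x Genomics single-cell RNA sequencing of mouse melanomas. C57BL/6 mice carried B16-GP33, a melanoma line with the viral GP33 peptide that CD8 T cells recognise, placed under the skin of the right flank. Treatments were a control IgG, an anti-PD-1 antibody, an anti-PSGL-1 antibody, or the latter pair given as a combination. Each antibody was dosed at 200 ug on day 8, day 10 and day 12, and the tumours were taken on day 18. Sorted cells were positive for CD45.2, a leukocyte marker, and negative for propidium iodide, a dye of dead cells. Each treatment is 1 library, and the number of mice behind a library is not given in the sources used here. No difference between treatments therefore has a replicate check, no test between treatments was possible, and every interval below is a 95% interval that covers counting error only.

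As background, T-bet (from Tbx21) and EOMES are T-box factors that drive the cytotoxic programme of CD8 T and NK cells, and EOMES is also linked with memory. BLIMP-1 (Prdm1) and ZEB2 are transcriptional repressors that promote terminal effector differentiation, and ID2 blocks the E proteins that maintain less differentiated lymphocytes and the plasmacytoid dendritic fate. BATF pairs with JUN proteins and with IRF4 or IRF8 downstream of the T cell receptor. IRF8 is best known from the myeloid lineage, where it is needed for type 1 conventional dendritic cells (cDC1) and monocytes, is abundant in plasmacytoid dendritic and B cells, and is induced by interferon-gamma; it is also made in activated CD8 T cells.

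The Irf8 promoter is shown because Irf8 had the largest ratios to IgG of the 8 genes in CD8 T-like cells with anti-PD-1 and with the combination. It also holds letter matches to an element found in genes that interferon-gamma induces. Irf8 lies at chr8:120736358-120756694 on the plus strand of GRCm38 (GENCODE M21). The 250 bases before its start, at chr8:120736108-120736357 on the plus strand of GRCm38.p6, are from RefSeq, with capitals marking matches to TTCNNNGAA, the GAS element of genes that interferon-gamma induces:
Irf8 promoter: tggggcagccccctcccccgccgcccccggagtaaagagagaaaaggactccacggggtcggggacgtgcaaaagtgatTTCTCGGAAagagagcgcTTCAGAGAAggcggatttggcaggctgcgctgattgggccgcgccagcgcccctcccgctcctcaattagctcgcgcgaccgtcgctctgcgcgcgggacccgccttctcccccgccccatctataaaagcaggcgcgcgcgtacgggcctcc
The matches lie at positions -171 to -163 and -153 to -145 from the annotated start. A match is a description of letters, not a binding site. The windows searched held the 250 bases before a start and a shorter stretch after it, which is not printed. The motif was in 2726 of 32851 such promoter windows (8.30%, both strands searched). It was in 3 of the 12 windows annotated for the 8 genes, the others being 2 overlapping Zeb2 windows that share 1 match. The interferon response element GAAANNGAAA was in the Eomes window and in 3.44% of all windows. The AP-1 element TGANTCA, which BATF dimers read, was in Prdm1 and Zeb2 windows and in 7.81% of all. The ZEB E-box CACCTG was in a window of Irf8, Prdm1 and Tbx21 and in 20.2% of all. No window of the 8 genes held the T-box element GGTGTGA (3.98% of all) or the Ets-IRF element GGAANNGAAA (2.72%); a site outside these windows would not be seen.

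The other genes lie, in GRCm38 coordinates, at chr11:97098071-97115331 (Tbx21), chr9:118478212-118486132 (Eomes), chr10:44437177-44528501 (Prdm1), chr2:44983632-45117395 (Zeb2), chr12:25093799-25097140 (Id2), chr12:85686669-85709087 (Batf) and chr13:30749226-30766976 (Irf4).

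The libraries held 4614 to 9733 barcodes, 27270 in all, with 184611085 UMIs; 24487 cells were kept, with a median of 3674.5 UMIs per cell in IgG and 6164 to 8392 in the other libraries. The IgG library stood apart: 12.6% of its cells stayed in unnamed clusters with mixed markers, against 0.260% to 1.00% elsewhere, and erythroid markers summed to 82.2 CPM (UMIs per 1e6 UMIs) in its CD8 T-like cells, against 0 to 2.15 elsewhere. The comparison of the combination with anti-PSGL-1, which does not use IgG, is therefore given beside those with IgG. The libraries shared 67 of 27203 barcode sequences, 6 to 14 for any pair. Cells were clustered without the 8 genes, so that they did not define the classes. Only immune cell types could be given as a class name. Levels are CPM: the gene's UMIs summed over a class in a library, scaled to that class's total. Sets of 4 values always run from IgG through anti-PD-1 and then anti-PSGL-1 to the combination, and levels are compared only within a gene. A class with fewer than 20 cells in a library gives no value there.

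Irf8 was highest in plasmacytoid dendritic-like cells, at 2323 CPM in IgG and 3269 in anti-PD-1, the only libraries with enough of these cells (184 and 26). NK-like cells had 1606, 1660, 1261 and 1602 CPM of Irf8, and cDC1-like cells 1269, 1703, 1328 and 1676. Migratory dendritic-like cells had 1393, 2405 and 1083 CPM in the first 3 libraries. The ranges of these last 3 classes overlapped one another and lay above all remaining classes.

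A middle group for Irf8 held CD8 T-like, macrophage- and monocyte-like (summed as 1 class), B-like, type 2 dendritic-like (cDC2), regulatory T-like and other T cells, and neighbours in that order overlapped. B-like cells had 314, 486, 300.0 and 340.3 CPM of Irf8, cDC2-like cells 170.4, 354, 137 and 295, and regulatory T-like cells 110.2, 231, 142 and 199. Conventional CD4 T-like cells, at 20.6, 45.8, 25.0 and 55.0, and neutrophil-like cells, at 14.3, 29.5, 20.9 and 21.95, lay lowest and overlapped. Mast- or basophil-like cells had a value in IgG alone (24 cells) and no Irf8 UMI there, which allows up to 49.6 CPM. The spread over libraries was thus wide in T and myeloid classes, where both libraries with anti-PD-1 stood above the others, and narrow in NK-like cells.

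**Figure D1:**
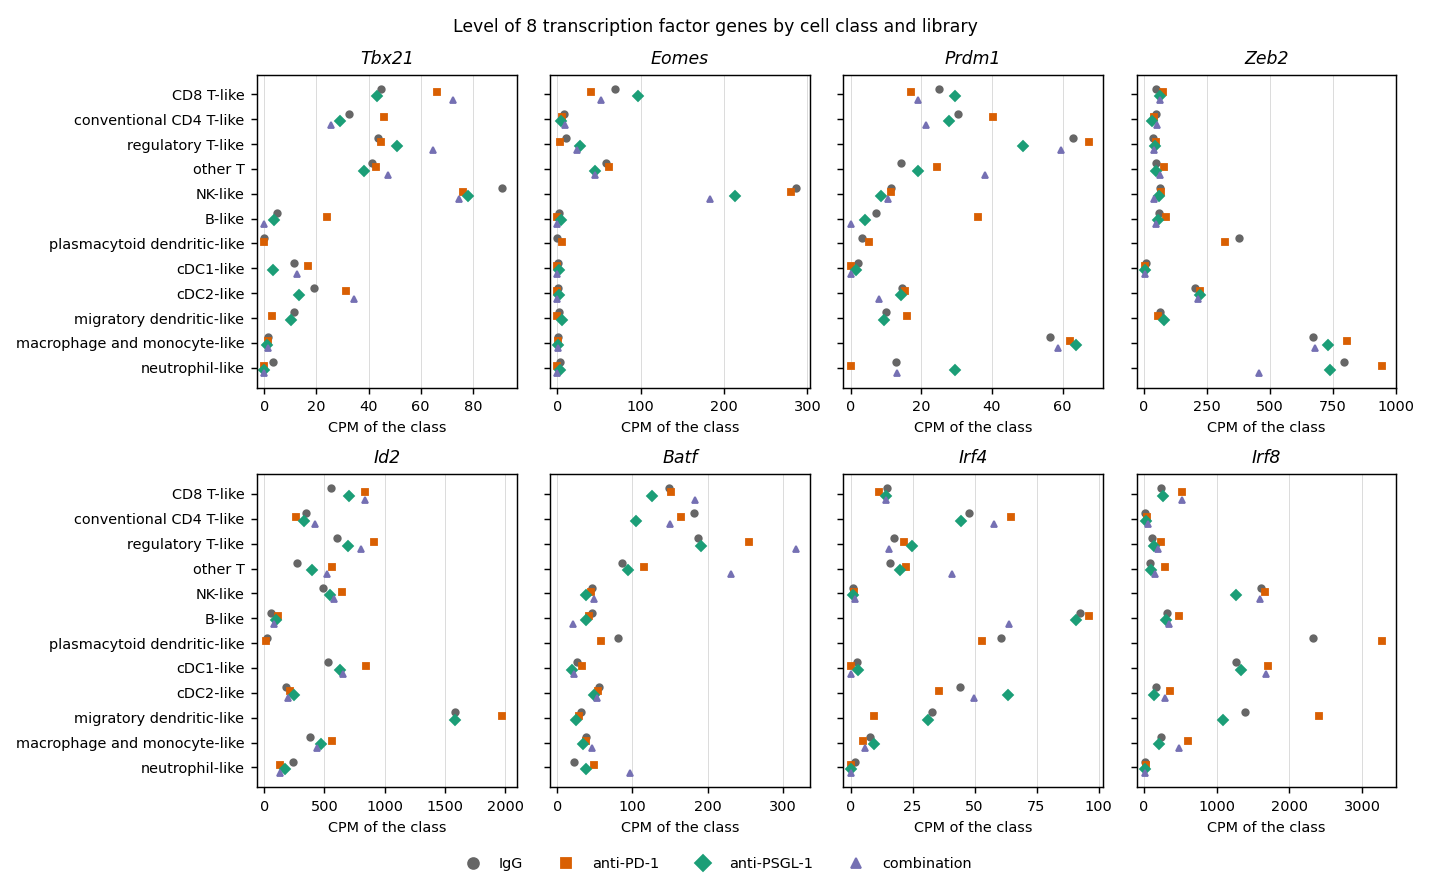
Level of each of the 8 genes (CPM, linear axis, a panel per gene) in 12 cell classes. Each point is 1 library, drawn without its counting interval. Irf8 is highest in plasmacytoid dendritic-like cells (2323 and 3269 CPM), Tbx21 and Eomes in NK-like cells, Batf in regulatory T-like cells and Irf4 in B-like cells.

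Both T-box genes were highest in NK-like cells, without overlap with the next class. Tbx21 had 91.3, 76.3, 77.9 and 74.8 CPM there, and Eomes 286, 280.4, 213 and 183. CD8 T-like cells came next for Tbx21, with 44.8, 66.1, 43.4 and 72.3 CPM, and overlapped with regulatory T-like cells at 43.7, 44.9, 50.8 and 64.7. Eomes was low in the CD4 lineage, with 4.76 to 9.39 CPM in conventional CD4 T-like cells. Tbx21 also reached 13.4 to 34.6 CPM in cDC2-like cells and 3.47 to 16.9 in cDC1-like cells, while macrophage- and monocyte-like cells had 0.982 to 1.63. No Tbx21 UMI was counted in plasmacytoid dendritic-like cells, which allows up to 3.30 CPM in IgG and 15.8 in anti-PD-1.

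The repressor genes had different summits. Prdm1 had 63.0, 67.4, 48.7 and 59.5 CPM in regulatory T-like cells and 56.3, 62.1, 63.7 and 58.6 in macrophage- and monocyte-like cells, which overlapped and lay above every other class. Zeb2 was highest in myeloid classes, at 794, 945, 740.3 and 457 CPM in neutrophil-like cells and 672, 805, 729 and 680.2 in macrophage- and monocyte-like cells. It stood at 4.46 to 10.5 in cDC1-like cells, below all other classes, and at 201 to 222 in cDC2-like cells. Id2 was highest in migratory dendritic-like cells, at 1586, 1975 and 1582 CPM, and lowest in plasmacytoid dendritic-like cells, at 19.8 and 15.8. The latter is the class with the highest Irf8. cDC1-like cells had 529.9, 845, 628 and 658 CPM of Id2.

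Batf was highest in regulatory T-like cells, at 187, 256, 191 and 317 CPM, followed by conventional CD4 T-like cells at 181, 164, 105 and 150.2 and CD8 T-like cells at 148, 151, 126 and 184, which overlapped each other. Irf4, which is needed for plasma cells and cDC2, was highest in B-like cells at 92.4, 96.0, 90.8 and 63.8 CPM. Conventional CD4 T-like cells had 47.8, 64.6, 44.6 and 57.7 CPM of Irf4 and cDC2-like cells 44.1, 35.8, 63.4 and 49.7, while CD8 T-like cells had only 14.7, 11.6, 14.1 and 14.2. In cDC1-like cells Irf4 had 2.49 and 2.97 CPM in IgG and anti-PSGL-1 and no UMI in the other libraries, which allows up to 4.61 CPM in anti-PD-1 and 4.69 in the combination. Irf4 and Irf8 thus had opposite levels in the pair of conventional dendritic classes.

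CD8 T-like cells numbered 1343, 1098, 1340 and 1681. Irf8 was at 231 CPM in IgG (221 to 241), 528 in anti-PD-1 (515 to 541), 257 in anti-PSGL-1 (248 to 267) and 529 in the combination (519 to 539). The libraries with anti-PD-1 did not overlap with those without it. The ratio to IgG was 2.29 (2.17 to 2.41) for anti-PD-1, 1.12 (1.05 to 1.18) for anti-PSGL-1 and 2.29 (2.18 to 2.41) for the combination. The combination stood at 1.00 (0.972 to 1.03) of anti-PD-1 and 2.05 (1.97 to 2.14) of anti-PSGL-1. Id2 had 557, 833, 707 and 836 CPM, with ratios to IgG of 1.495 (1.44 to 1.55), 1.27 (1.23 to 1.32) and 1.5002 (1.45 to 1.55). All 3 treated libraries were above IgG for Id2, and those with anti-PD-1 highest.

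The T-box genes differed in opposite directions in the libraries with anti-PD-1. Tbx21 was 1.48 (1.31 to 1.67) times IgG in anti-PD-1, 0.969 (0.848 to 1.11) in anti-PSGL-1 and 1.62 (1.44 to 1.81) in the combination. Eomes had 69.2, 39.9, 97.3 and 51.8 CPM in CD8 T-like cells, which are ratios to IgG of 0.577 (0.511 to 0.651), 1.41 (1.27 to 1.55) and 0.749 (0.677 to 0.828). Eomes was thus below IgG in both libraries with anti-PD-1 and above it with anti-PSGL-1 alone. Its ratio of the combination to anti-PSGL-1 was 0.533 (0.490 to 0.579), and that of Tbx21 was 1.67 (1.51 to 1.84).

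Zeb2 had 49.1, 77.2, 63.3 and 62.9 CPM, with ratios to IgG of 1.57 (1.40 to 1.77), 1.29 (1.14 to 1.46) and 1.28 (1.15 to 1.43). With cells taken by per-cell marker gates instead of clusters these ratios were 1.22, 1.02 and 0.980, so that Zeb2 was near IgG in both libraries with anti-PSGL-1. Prdm1 had 24.9, 17.2, 29.6 and 19.0 CPM and was lower with anti-PD-1, at 0.689 (0.568 to 0.836), and with the combination, at 0.763 (0.645 to 0.904). Zeb2 and Prdm1, whose products both promote the terminal effector state, therefore differed in direction with anti-PD-1. Batf was 1.02 (0.949 to 1.09) times IgG in anti-PD-1, 0.851 (0.789 to 0.918) in anti-PSGL-1 and 1.24 (1.16 to 1.32) in the combination, and 1.45 (1.37 to 1.54) times anti-PSGL-1 in the combination. Irf4 ratios to IgG ran from 0.791 to 0.967, and each interval included 1.

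A gene was called higher or lower when the ratio was at least 1.5 and at least 1 library reached 10 CPM. With anti-PD-1 against IgG, Zeb2 and Irf8 were called higher, where 3.43% of the 7249 genes measured in CD8 T-like cells were, and Eomes lower, where 3.70% were. With anti-PSGL-1 none of the 8 was called, where 0.988% of genes were higher and 0.682% lower. With the combination against IgG, Tbx21, Id2 and Irf8 were higher (background 3.79%) and none lower (2.79%). Between the combination and anti-PD-1 none was called (1.60% higher and 1.11% lower). Against anti-PSGL-1 the combination had Tbx21 and Irf8 higher (3.86%) and Eomes and Prdm1 lower (3.73%). The comparisons with IgG share that library, and those with the combination share it. Id2 sat on the line in both libraries with anti-PD-1.

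Several of these calls were lost under other settings. Eomes with anti-PD-1 was at 0.814 with cells thinned to 2000 UMIs, 0.736 with every cell weighing the same and 0.698 without cells with Mki67 or Top2a UMIs. The Zeb2 call with anti-PD-1 was lost with the gates and without the naive-like sub-cluster of CD8 T-like cells (1.42). With the combination, Tbx21 was at 1.497 after thinning and 1.47 without the naive-like sub-cluster, and Id2 at 1.44 with median-of-ratios scaling, 1.49 with TMM scaling and 1.34 without that sub-cluster. Against anti-PSGL-1, Tbx21 was at 1.49 with every cell weighing the same, and Prdm1 was between 0.673 and 0.702 under 5 settings. Some ratios passed the line only under other settings. Id2 with anti-PD-1 was at 1.70 after thinning and at 1.68 with every cell weighing the same. Batf in the combination against anti-PSGL-1 was at 1.66 after thinning and 1.79 without cells with Mki67 or Top2a UMIs. Prdm1 with anti-PD-1 was at 0.627 without the naive-like sub-cluster. Irf8 kept its calls in CD8 T-like cells under every setting except a fixed make-up of sub-clusters.

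**Figure D2:**
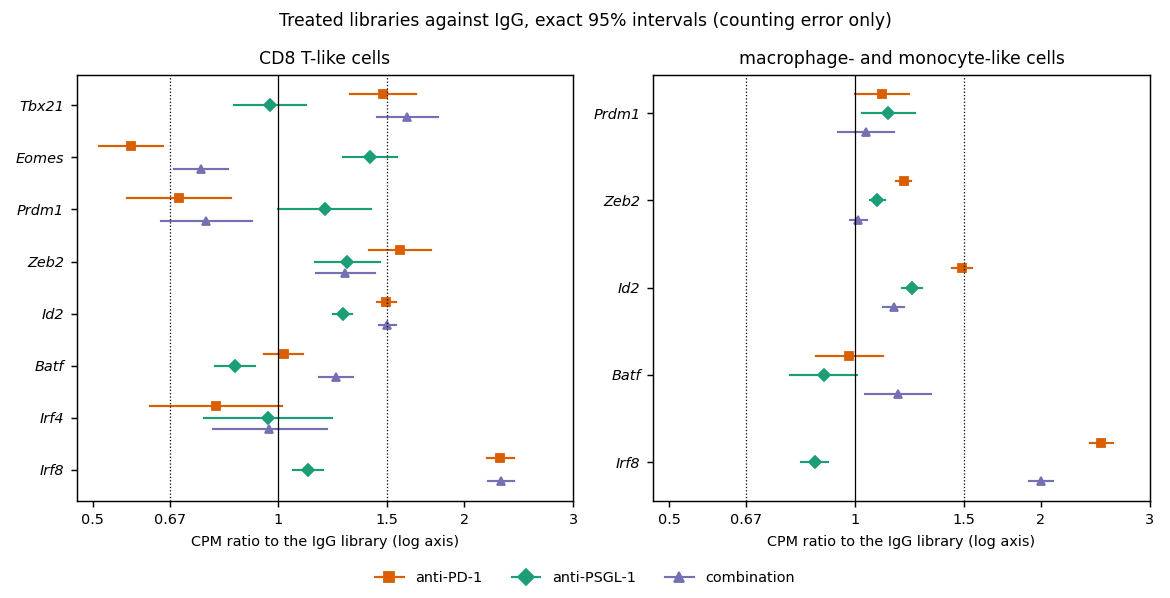
Ratio of each treated library to IgG (log axis) in CD8 T-like cells (8 genes) and in macrophage- and monocyte-like cells (the 5 genes at 10 CPM or more), with 95% counting intervals; dotted lines mark 1.5-fold either way. With anti-PD-1, Irf8 is at 2.29 in the CD8 T-like panel and at 2.50 in the myeloid panel, and near 1 with anti-PSGL-1 alone.

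Depth differed between libraries, so the share of cells with an Irf8 UMI was taken after thinning each cell to 2000 UMIs. In CD8 T-like cells that share was 22.4%, 43.0%, 25.8% and 39.1%, against 39.3%, 71.9%, 49.8% and 66.8% unthinned, at median depths of 4752, 10220, 7383 and 10988 UMIs. Cells too shallow for this numbered 62, 11, 32 and 23. Neutrophil-like cells, a lineage in which little Irf8 is known, had 1.54% to 5.56% at median depths of 1309 to 2187 UMIs, and NK-like cells 84.0% to 91.9%. Eomes was found in 10.9%, 8.28%, 13.1% and 8.69% of thinned CD8 T-like cells and Id2 in 49.7%, 68.6%, 55.3% and 65.9%. The order of libraries on these shares kept both anti-PD-1 libraries above the others for Irf8 and Id2 and below them for Eomes.

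Markers of other cells that carry Irf8 were measured in CD8 T-like cells. All 8 NK markers had UMIs and summed to 353, 721, 402 and 743 CPM, higher in the same libraries as Irf8. Most of that sum was Klrk1 (164 to 323), Klre1 (75.5 to 257) and Gzma (106 to 206), which CD8 T cells also express, while the NK-defining Ncr1 stood at 0.187 to 1.75 and Klrb1c at 0.375 to 2.17. The monocyte list summed to 1234, 1843, 1318 and 2122 CPM, also higher in the same libraries. Nearly all of it was Plac8 (773, 1213, 644 and 1385) and Ly6c2 (425, 599.8, 608 and 699.7), which CD8 T cells also express, with Ccr2 at 28.7 to 62.1, while Chil3, Vcan, F13a1, Ace and Treml4 each stood at 0 to 2.09. The plasmacytoid list summed to 109, 155, 108 and 151 CPM, nearly all Bst2, with Siglech and Klk1 at 0 in anti-PSGL-1 and the combination. The cDC1 list summed to 9.15 to 11.3 CPM, with Clec9a at 0 in IgG and anti-PD-1, the macrophage list to 9.93 to 18.3 and the B list to 0.636 to 2.42. Without cells that carried UMIs of another lineage, the Irf8 ratios to IgG were 2.25, 1.13 and 2.28.

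CD8 T-like cells fell into 6 sub-clusters, which are called here by their leading genes: naive-like (Dapl1, S1pr1, Ccr7), Gzmk and Gzma, Ccl3 and Gldc, dividing (histone genes, Ccna2), Gzmf and Serpine2, and Gzmd and Gzmf. Different sub-clusters held most of the class: in IgG the Ccl3 and Gldc (431 cells), naive-like (298) and Gzmk and Gzma (290) sub-clusters, in anti-PD-1 the Gzmf and Serpine2 (314), dividing (208) and Gzmd and Gzmf (203) ones. In anti-PSGL-1 they were the Ccl3 and Gldc (460), Gzmk and Gzma (351) and dividing (272) sub-clusters, and in the combination the Gzmk and Gzma (479), Gzmf and Serpine2 (398), dividing (299) and Gzmd and Gzmf (276) ones.

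Irf8 was graded over these sub-clusters. The naive-like cells had 17.1, 27.7 and 31.0 CPM in the first 3 libraries, and the Gzmk and Gzma cells 29.8, 54.0, 52.1 and 63.6. Ccl3 and Gldc cells had 260.4, 339, 309.8 and 219 CPM and dividing cells 229, 442, 247 and 428. The cells with granzymes C to G among their leading genes were highest: 663, 618, 544 and 638 in Gzmf and Serpine2 cells, and 722, 739.9 and 894 in Gzmd and Gzmf cells, which had no value in anti-PSGL-1 and only 20 cells in IgG. The granzyme sub-clusters lay above the other 4 in every library with a value.

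Within sub-clusters the Irf8 ratios to IgG were mixed. In Gzmk and Gzma cells they were 1.81 (1.07 to 3.096), 1.75 (1.14 to 2.77) and 2.14 (1.43 to 3.29), where 11.8%, 7.22% and 7.85% of genes were called higher, and Irf8 was the only 1 of the 8 called higher in each. Dividing cells had Irf8 ratios of 1.93 (1.76 to 2.12), 1.08 and 1.87 (1.72 to 2.04). The dividing cells also had Tbx21 at 1.72 (1.37 to 2.17) and Zeb2 at 1.61 (1.29 to 2.03) with anti-PD-1, so 3 of the 8 were higher where 6.63% of genes were. With the combination 2 were higher, Irf8 and Tbx21 at 1.52 (1.22 to 1.89), where 5.46% of genes were. In Gzmf and Serpine2 cells the Irf8 ratios were 0.932, 0.821 and 0.962, and in Gzmd and Gzmf cells 1.03 and 1.24. Irf8 in naive-like cells was above IgG in anti-PD-1 and in anti-PSGL-1, at no more than 31.0 CPM. In Ccl3 and Gldc cells Irf8 was above IgG in the same libraries and below IgG in the combination.

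At the sub-cluster make-up of IgG, a calculation added after the data were seen, the Irf8 ratio in CD8 T-like cells was 1.43 for anti-PD-1, 1.11 for anti-PSGL-1 and 1.25 for the combination, all under the 1.5-fold line. The IgG levels taken at the make-up of anti-PD-1 gave 2.02, and at that of the combination 1.89. The same weighting put Tbx21 at 1.24 with anti-PD-1 and 1.105 with the combination, Zeb2 at 1.39 with anti-PD-1, and Id2 at 1.22 and 1.23. Eomes was at 0.838 with anti-PD-1 and 1.01 with the combination. Against anti-PSGL-1, the combination's Irf8 ratio of 2.05 became 1.13. The weights were shares of IgG UMIs, of which naive-like cells held 1049799 of 8580158, and the combination's naive-like cells numbered 18. The IgG level of Gzmd and Gzmf cells, used for the values 2.02 and 1.89, came from 20 cells.

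**Figure D3:**
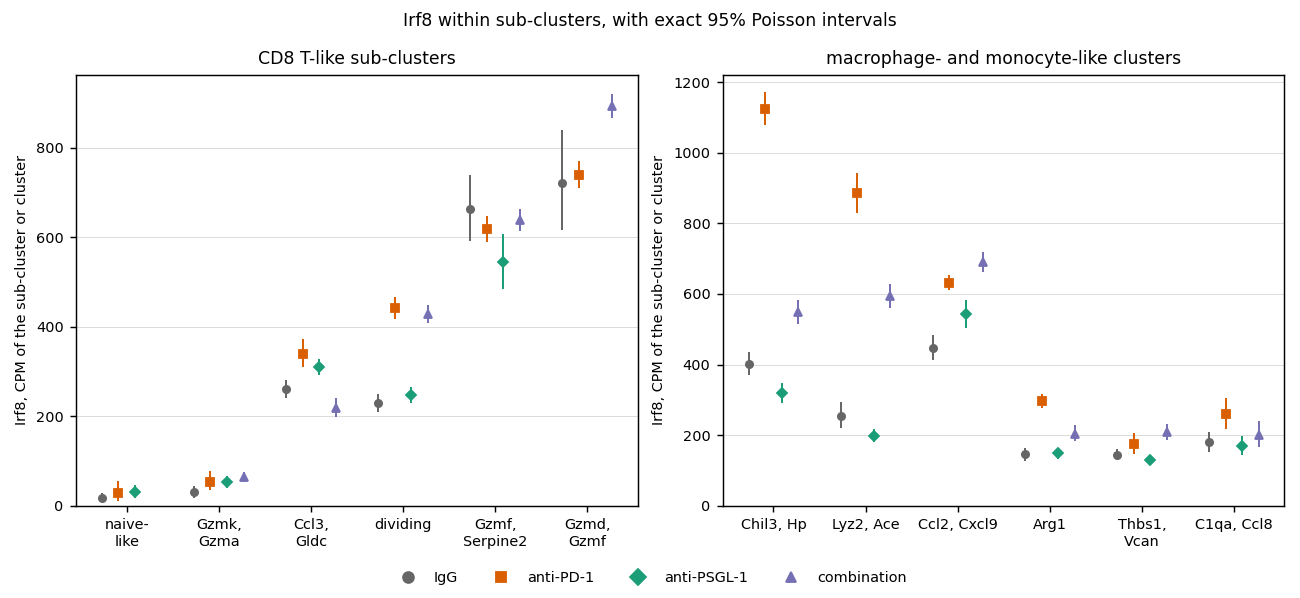
Irf8 level (CPM) in the 6 CD8 T-like sub-clusters and in the 6 macrophage- and monocyte-like clusters; points are libraries with 95% Poisson intervals, and a library with fewer than 20 cells has no point. In dividing CD8 T-like cells Irf8 stands at 442 and 428 CPM in the libraries with anti-PD-1 against 229 in IgG, while in Gzmf and Serpine2 cells the 4 libraries lie between 544 and 663.

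The other 7 genes had their own gradients over the CD8 T-like sub-clusters. Eomes was low in naive-like cells, at 28.6, 33.9 and 25.5 CPM, and in Gzmd and Gzmf cells, at 20.7, 21.0 and 26.6. It reached 71.9, 99.8, 82.1 and 62.8 in Gzmk and Gzma cells and 74.9, 72.0, 118 and 88.3 in Ccl3 and Gldc cells, where the anti-PSGL-1 ratio to IgG was 1.57 (1.34 to 1.85). In dividing cells Eomes had 83.7, 46.6, 104 and 70.0 CPM, with a ratio of 0.557 (0.452 to 0.684) for anti-PD-1. In Gzmf and Serpine2 cells Eomes had ratios of 0.478 (0.311 to 0.755) for anti-PD-1 and 0.640 (0.430 to 0.984) for the combination. Eomes with anti-PD-1 was thus also below IgG inside dividing and inside Gzmf and Serpine2 cells, while in Gzmk and Gzma cells it was above IgG. Gzmd and Gzmf cells were low in Eomes and high in Irf8, and naive-like cells were low in both.

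Tbx21 was lowest in naive-like cells, at 11.4, 15.4 and 11.1 CPM, and highest in Gzmf and Serpine2 cells, at 100.3, 82.1, 70.7 and 99.3. Id2 likewise ran from 58.1, 92.5 and 70.9 CPM in naive-like cells to 1003, 979, 1023 and 1071 in Gzmf and Serpine2 cells. Zeb2 was 4.76, 24.7 and 4.43 in naive-like cells and 96.4, 107, 130 and 95.3 in Gzmf and Serpine2 cells. Irf4 had another order: Gzmk and Gzma cells had 29.8, 19.6, 26.4 and 39.4 CPM, and Ccl3 and Gldc cells 9.45, 8.28, 8.79 and 6.11. With the combination, Prdm1 was 0.604 (0.376 to 0.983) and Zeb2 0.655 (0.462 to 0.937) times IgG in Gzmk and Gzma cells, and Prdm1 0.636 (0.440 to 0.908) in Ccl3 and Gldc cells. Batf lay between 55.4 and 207 CPM over all sub-clusters and libraries.

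**Figure D4:**
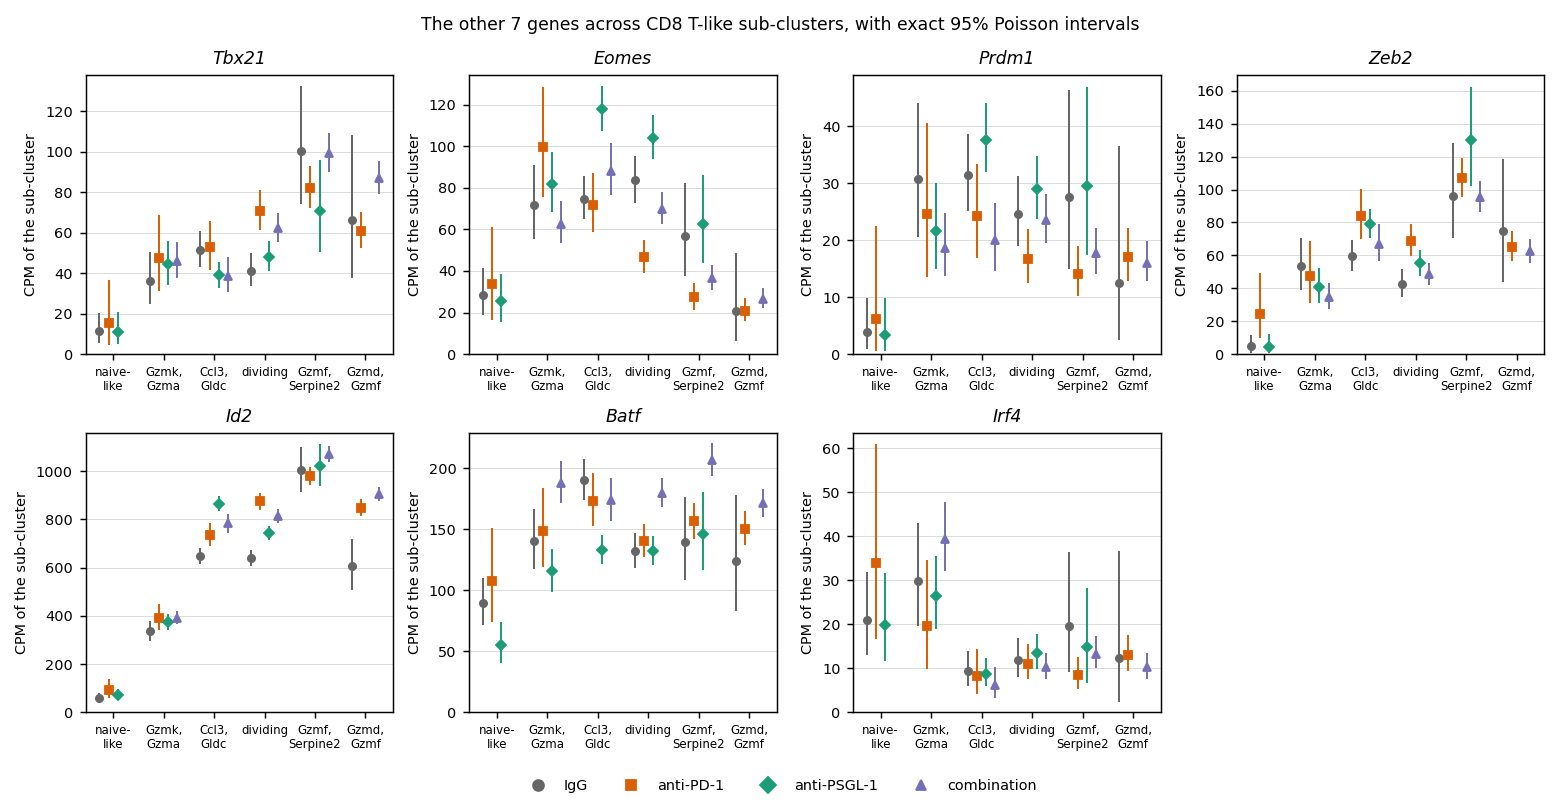
Level (CPM) of the other 7 genes in the 6 CD8 T-like sub-clusters, a panel per gene, with points as libraries and 95% Poisson intervals. Tbx21, Zeb2 and Id2 are lowest in naive-like and highest in Gzmf and Serpine2 cells, while Eomes is low in naive-like cells (25.5 to 33.9 CPM) and in Gzmd and Gzmf cells (20.7 to 26.6 CPM).

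Macrophage- and monocyte-like cells numbered 2343, 2429, 2392 and 1586, and 5 of the 8 genes reached 10 CPM there. Irf8 was at 239.6 CPM in IgG (231 to 248.7), 600.0 in anti-PD-1 (588 to 612), 206 in anti-PSGL-1 (199 to 213) and 479 in the combination (468 to 491). All 4 intervals were separate. The ratio to IgG was 2.50 (2.40 to 2.61) for anti-PD-1, 0.860 (0.818 to 0.904) for anti-PSGL-1 and 2.00 (1.91 to 2.09) for the combination. The combination was 0.799 (0.774 to 0.825) times anti-PD-1 and 2.33 (2.23 to 2.43) times anti-PSGL-1.

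Irf8 was the only 1 of the 5 called higher with anti-PD-1, where 6.78% of the 6767 genes measured were, and with the combination, where 3.24% were. It was also the only call against anti-PSGL-1 (4.14%). None of the 5 was lower in those comparisons (4.73%, 1.73% and 3.15%), and none was called for anti-PSGL-1 against IgG (1.13% higher and 1.08% lower) or for the combination against anti-PD-1 (2.90% and 3.30%). Id2 had 379.6, 565, 469.9 and 438 CPM, with ratios to IgG of 1.49 (1.44 to 1.54), 1.24 (1.19 to 1.28) and 1.15 (1.11 to 1.201). Zeb2 was 1.199 (1.17 to 1.23) times IgG with anti-PD-1 and 1.01 (0.982 to 1.04) with the combination. Batf was 1.17 (1.04 to 1.33) times IgG with the combination, and Prdm1 ratios lay between 1.04 and 1.13.

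After thinning, 29.0%, 52.5%, 25.3% and 44.8% of macrophage- and monocyte-like cells had an Irf8 UMI, against 44.4%, 74.8%, 49.6% and 73.9% unthinned, at median depths of 4714, 6285, 6786 and 8094.5 UMIs. The NK marker list summed to 68.3, 115, 35.8 and 72.1 CPM in these cells, mostly Klrk1 at 46.4, 90.8, 24.7 and 63.4, with Ncr1 at 0.0743 to 0.629 and Klrb1c at 0.446 to 1.40. The cDC1 marker list summed to 375, 668, 361 and 559.6 CPM. Both lists were higher in the same libraries as Irf8. Naaa (257 to 387) and Ifi205 (73.5 to 304) made up most of the cDC1 sum. The defining Xcr1 was low, at 0.786, 1.26, 0.635 and 1.49 CPM, as was Clec9a, at 1.22, 3.52, 0.693 and 4.75. Xcr1 and Clec9a were also higher in the libraries with anti-PD-1. Wdfy4 had 29.3, 23.1, 28.0 and 34.7 CPM, and Itgae 0.149 to 0.611. The plasmacytoid list had 402, 617, 295 and 385 CPM, nearly all Bst2, with Siglech at 0 in anti-PSGL-1 and the combination. Without cells with UMIs of another lineage the Irf8 ratios to IgG were 2.56, 0.903 and 1.99.

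The 6 clusters of this class differed in Irf8. Monocyte-like cells led by Lyz2, Chil3 and Hp with Fn1 had 403, 1125, 319 and 549 CPM, and those with Ace among their leading genes 256, 885, 199 and 594. The ratios to IgG were 2.79 (2.57 to 3.03) and 3.46 (2.99 to 4.02) with anti-PD-1, and 1.36 (1.24 to 1.496) and 2.33 (2.02 to 2.69) with the combination. Irf8 alone of the 8 was called higher in both with anti-PD-1 (8.75% and 12.3% of genes) and, with the combination, in the cells with Ace (11.8%).

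Macrophage-like cells led by Ccl2 and Cxcl9 had 448, 631, 543 and 691 CPM of Irf8, and the combination's ratio to IgG of 1.54 (1.42 to 1.68) was the only call higher among the 8 (6.82% of genes). In the same cells Id2 was 1.85 (1.66 to 2.07) times IgG with anti-PD-1. Cells led by Arg1 had 146, 297, 149 and 204 CPM of Irf8, with a ratio of 2.04 (1.81 to 2.31) for anti-PD-1, again the only call higher (11.3%). Cells led by C1qa had 179, 259, 170 and 201 CPM, and those led by Lyz2 with Thbs1 and Vcan 145, 175, 129.99 and 208, with no ratio to IgG of 1.5 or more. At the IgG make-up of clusters, the Irf8 ratio of the class was 1.99 for anti-PD-1, 0.960 for anti-PSGL-1 and 1.49 for the combination.

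Irf8 was above IgG with anti-PD-1 and the combination in other classes too. In cDC2-like cells (547, 214, 325 and 119 cells) the ratios were 2.08 (1.87 to 2.30) and 1.73 (1.53 to 1.96). Tbx21 was also higher there, at 1.64 (1.17 to 2.30) and 1.82 (1.24 to 2.64), so 2 of the 8 were called higher in each, where 8.00% and 7.44% of genes were. Prdm1 was lower with the combination, at 0.542 (0.257 to 1.04), where 6.92% of genes were. In regulatory T-like cells (477, 121, 238 and 74 cells) the Irf8 ratios were 2.10 (1.75 to 2.51) and 1.81 (1.48 to 2.21). Irf8 was the only call higher with anti-PD-1 (7.66% of genes), and Eomes, from 3 UMIs, the only call lower (8.91%).

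Regulatory T-like cells also differed in Eomes, at 10.2, 3.21, 27.7 and 23.3 CPM, with ratios to IgG of 2.71 (1.67 to 4.505) for anti-PSGL-1, the only call higher there (4.79% of genes), and 2.28 (1.18 to 4.32) for the combination. With the combination 3 of the 8 were higher, Irf8, Eomes and Batf, the last at 1.69 (1.45 to 1.98), where 10.1% of genes were. Cd8a or Cd8b1 UMIs were in 21.4% of cells of the larger regulatory T-like sub-cluster and 42.9% of the dividing one. The part of such cells in the ratios of this class, those of Irf8 included, was not tested. Conventional CD4 T-like cells had Irf8 ratios of 2.22 (1.08 to 4.502) and 2.66 (1.51 to 4.86), from 17 to 42 UMIs a library, as the only calls higher (15.6% and 12.1% of genes). Batf was 0.580 (0.467 to 0.721) times IgG there with anti-PSGL-1, the only call lower (9.09% of genes). The other T cells, a mixture of clusters with no name, had Irf8 ratios of 3.20 (2.65 to 3.88) and 1.67 (1.33 to 2.09), with 4 of the 8 called higher in the former, where 10.3% of genes were, and 5 in the latter, where 976 of 7517 genes were. Their sub-cluster led by Klra1, at 48.8 to 52.7 CPM of Irf8, held 370 of 574 cells in IgG, 116 of 283 in anti-PD-1 and 49 of 168 in the combination. The sub-cluster led by Hspb1, at 170 to 546 CPM, held 42, 74 and 40. The part of this make-up in the ratios was not tested.

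Among the classes highest in Irf8, migratory dendritic-like cells had an anti-PD-1 ratio of 1.73 (1.57 to 1.90) from 39 cells against 106; Irf8 and Prdm1, the latter from 5 UMIs against 7, were called higher, where 16.8% of genes were, and Tbx21 and Irf4, from 1 and 3 UMIs with anti-PD-1, lower, where 25.5% were. NK-like cells had no Irf8 call. With the combination, NK-like cells had Eomes at 0.641 (0.561 to 0.731) and Zeb2 at 0.655 (0.491 to 0.868) times IgG, the calls lower where 13.6% of genes were. NK-like cells led by Gzmc had 113 to 118 CPM of Eomes over libraries, and the other NK-like sub-cluster 221 to 317. The Gzmc sub-cluster held 355326 of 2278464 NK-like UMIs in IgG and 688276 of 1884944 in the combination. The part of this make-up in the ratios was not tested. In cDC1-like cells with anti-PD-1, Id2 was higher, at 1.59 (1.44 to 1.77) times IgG (15.1% of genes), and Zeb2, from 3 UMIs, lower (10.4%). B-like cells, 57 with anti-PD-1 against 223, had an Irf8 ratio of 1.55 (1.16 to 2.06). Tbx21, Prdm1, Zeb2, Id2 and Irf8 were all called higher there, where 24.8% of genes were.

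Genes around the 8 were read from 7 lists, by counts of those at 10 CPM or more. None of 5 measured interferon regulatory factors other than Irf4 and Irf8 was called in CD8 T-like cells in any treated library against IgG; their median log2 ratios were -0.02, -0.05 and 0.11, against 0.02, -0.04 and 0.04 over all genes measured in CD8 T-like cells. Irf1, which interferon-gamma induces, had 134, 132, 134 and 196 CPM there. In macrophage- and monocyte-like cells 2 of 6 were higher with anti-PD-1 (6.78% of all genes; median 0.35 against -0.00 over all genes) and 1 of 6 with the combination (3.24%; 0.19 against 0.04). Irf1 had 241, 567, 197 and 498 CPM in them and Irf7, a driver of type I interferon, 243, 484, 163 and 284. Irf1 was 2.35 (2.26 to 2.46) times IgG with anti-PD-1 and 2.07 (1.98 to 2.16) with the combination.

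The list of interferon-gamma signalling had 2 of 9 genes higher and 1 lower in macrophage- and monocyte-like cells with anti-PD-1, where 6.78% of all genes were higher and 4.73% lower. Socs1, the feedback inhibitor, was 4.08 (3.79 to 4.41) times IgG and Stat2, a signal transducer of interferon receptors, 2.00 (1.80 to 2.22), while the receptor gene Ifngr1 was 0.593 (0.558 to 0.629). With the combination 1 of 9 was higher (3.24% of all genes), Socs1 at 2.45 (2.26 to 2.66), and with anti-PSGL-1 none was called. The median log2 ratios were 0.33 with anti-PD-1, 0.26 with the combination and 0.03 with anti-PSGL-1, against -0.00, 0.04 and -0.01 over all genes. In CD8 T-like cells with anti-PD-1, 0 of 8 were higher and Socs3 was lower, at 0.595. Over all genes 3.43% were higher and 3.70% lower in that comparison. None of the list was called with anti-PSGL-1 (0.988% of all genes higher and 0.682% lower). With the combination 2 of 7 were higher, where 3.79% of all genes were. They were Socs1 at 1.55 (1.41 to 1.71) and Cish, another feedback inhibitor of cytokine signals, at 1.75 (1.56 to 1.97).

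Of the list of genes that IRF8 is known to regulate in myeloid cells, 1 of 12 was higher with anti-PD-1, 1 with anti-PSGL-1 and 2 with the combination in macrophage- and monocyte-like cells, and none was lower. Over all genes 6.78%, 1.13% and 3.24% were higher there, so the single gene with anti-PD-1 is near that background. Nos2, the inducible nitric oxide synthase, had 25.7, 198, 49.6 and 105 CPM, and Cybb, of the phagocyte oxidase, 634 in IgG and 1079 in the combination. The list medians were 0.19, -0.01 and 0.15 on the log2 scale, against -0.00, -0.01 and 0.04 over all genes. In CD8 T-like cells 5 of that list were measured, of which Cebpb was higher, at 1.94, and Klf4 lower, at 0.449, with the combination. Over all genes 3.79% were higher and 2.79% lower in that comparison.

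Batf2, a partner of IRF factors, had 18.1 CPM in IgG, 74.3 in anti-PD-1 and 66.6 in the combination in macrophage- and monocyte-like cells, where it and Fosl1 were the AP-1 list's calls higher, 2 of 11 in each, where 6.78% and 3.24% of all genes were higher. With anti-PSGL-1 Fosl1 alone was higher, where 1.13% of all genes were. The list's medians in macrophage- and monocyte-like cells were 0.04, -0.12 and -0.21. In CD8 T-like cells the same list had 3 of 9 lower with anti-PD-1 (Fos, Maf and Bach2), 1 with anti-PSGL-1 (Bach2) and 3 with the combination (Jun, Fos and Bach2), and none higher; over all genes 3.70%, 0.682% and 2.79% were lower. Its medians in CD8 T-like cells were -0.26, 0.09 and -0.36, against 0.02, -0.04 and 0.04. Of ID and E proteins in CD8 T-like cells, Tcf4 was the only call, higher at 1.65 with anti-PD-1 and 1.84 with the combination, from 8.04 CPM in IgG. Over all genes 3.43% and 3.79% were higher in these comparisons. Of 5 ID and E protein genes measured in macrophage- and monocyte-like cells, Id1 was the only call. It was lower with anti-PSGL-1, at 0.635, where 1.08% of all genes were.

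The list of naive and memory T cell factors, which oppose several of the 8, had 5 of 8 genes lower with anti-PD-1, 2 with anti-PSGL-1 and 4 with the combination in CD8 T-like cells, where 3.70%, 0.682% and 2.79% of all genes were, and none higher. The naive-like sub-cluster held 22.2%, 6.65%, 12.5% and 1.07% of the class; its part in these counts was not tested. The 5 with anti-PD-1 were Tcf7 at 0.194 (0.161 to 0.234), Lef1 at 0.313, Klf2 at 0.369, Bach2 at 0.435, and Eomes, which is on this list as well. With anti-PSGL-1 Lef1 and Bach2 were lower, and with the combination Tcf7 at 0.139, Lef1, Klf2 at 0.309 and Bach2. Eomes was 1.41 times IgG with anti-PSGL-1, under the line. The median log2 ratios were -0.998, -0.35 and -0.85, against 0.02, -0.04 and 0.04 over all genes. In macrophage- and monocyte-like cells none of 4 measured was called. Targets of T-box factors had 3 of 13 higher and 3 lower with anti-PD-1, 1 higher with anti-PSGL-1 and 5 higher and 1 lower with the combination, with medians of 0.25, 0.09 and 0.52. Over all genes 3.43% were higher and 3.70% lower with anti-PD-1, 0.988% higher with anti-PSGL-1, and 3.79% higher and 2.79% lower with the combination, and the medians were 0.02, -0.04 and 0.04. Gzmb had 805, 2428, 861 and 2659 CPM, Prf1 was 2.53 (2.39 to 2.69) and 2.67 (2.53 to 2.83) times IgG with anti-PD-1 and with the combination, and Cx3cr1 was 2.08 (1.79 to 2.43) times IgG with anti-PSGL-1. Cxcr3 and Klrg1, which T-bet also drives, were lower with anti-PD-1, at 0.374 and 0.417. Genes of the T-box target list called in macrophage- and monocyte-like cells were Gzmb, Ccl4 and Ccl5 higher with anti-PD-1 and Gzma lower with anti-PSGL-1. With the combination Gzmb, Ccl5 and Itga4 were higher and Gzma lower. Over all genes there, 6.78% were higher with anti-PD-1, 1.08% lower with anti-PSGL-1, and 3.24% higher and 1.73% lower with the combination. Tbx21 had only 0.982 to 1.63 CPM and Eomes 0.149 to 1.04 in these cells, and the source of these UMIs was not tested. Genes named in this and the preceding 4 paragraphs with fewer than 50 CPM in both libraries were named after their values were seen.

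The genes closest in pattern to each of the 8 were taken by Pearson correlation of log2(CPM + 1) over 41 sums of a class in a library, among 5521 genes. The sums share libraries and differ in depth, so the values are descriptions. They were Lrrk1 (0.854), BC035044 (0.776) and Nenf (0.749) for Irf8, Cst7 (0.891), Rab19 (0.875) and Stk39 (0.874) for Tbx21, and Dapk2 (0.952), Txk (0.911) and Crtam (0.909) for Eomes. For Prdm1 they were Fam46a (0.777), Zswim6 (0.775) and Maf (0.774), for Zeb2 Il10rb (0.868) and Pilra (0.867), and for Id2 Ubash3b (0.902), Myl6 (0.80) and Myl12a (0.794). For Batf they were BC021614 (0.881), Arl6ip1 (0.876) and Sh3kbp1 (0.820), and for Irf4 Mif4gd (0.802), Traf5 (0.765) and Rftn1 (0.756). Among the 8 themselves, Tbx21 and Eomes had the highest correlation (0.71), Tbx21 and Zeb2 the lowest (-0.61), and Irf4 and Irf8 had -0.07.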

How the data were processed

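The authors deposited unnormalised UMI counts for every gene in each cell barcode, as 4 libraries with 1 per treatment label. Cell Ranger 3.1.0, FastQC and mm10 are named per the submitters' processing notes; FastQC's version, like that of the annotation, is not given in the sources used here. Kept cells had 300 or more genes, no more than 60000 UMIs and no more than 10% of them mitochondrial. For doublets, Scrublet's own cutoff had not worked (1, 84, 0 and 42 cells), and the top-scoring 0.8% per 1000 cells were removed instead (717, 219, 377 and 154 cells). Leiden clustering (resolution 1, seed 0) used 2000 variable genes without the 8 genes, 30 principal components and 20 neighbours. It gave 23 clusters, 18 sub-clusters of T and NK cells and 13 named classes. A name needed 3 markers in 10% of cells at 1.5-fold and under 25% mixed cells, and for CD8 T-like clusters 60% of cells with Cd8a or Cd8b1 and no more than 20% with Cd4; these limits were chosen with the data in view. Macrophage- and monocyte-like clusters were merged, because 1 cluster's leading genes held more markers of the other name.

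UMIs were summed per class and library as CPM, with exact 95% Poisson intervals, exact conditional intervals for ratios and Clopper-Pearson intervals for shares. A count of 0 was taken to allow up to 3 UMIs, which is tighter than the upper end of its exact Poisson interval. Scaling factors in the alternatives were TMM from edgeR 4.0.16 and medians of ratios. List genes were named by the largest ratios at 50 CPM or more, up to 2 each way per list. Some genes that these rules name are not reported here, and 1 was left out of its list. Scripts were tested on simulated data. The 8 genes, the lists and the tests were chosen with earlier results of these data known. Tools were R 4.3.3, scanpy 1.11.5, scipy 1.17.1, pandas 2.3.3, leidenalg 0.10.2, numpy 2.4.6, scikit-learn 1.9.0, matplotlib 3.10.9, igraph 0.11.9 and Python 3.11.15.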

Additional observations from a re-analysis of the deposited data

Results flagged for a closer look

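In 6 cases a gene was at least 1.5-fold higher in 1 named class and at least 1.5-fold lower in another under the same comparison, with neither interval holding 1; smaller opposite differences are not listed. Each rests on 1 library per treatment, and the difference between classes was not tested. The share of all genes with such opposite differences is not given here, so the 6 cases have no background to be read against. With anti-PD-1 against IgG, 24.8% of genes were called higher in B-like cells and 15.1% in cDC1-like cells. No such share is given here for neutrophil-like cells. Id2 with anti-PD-1 against IgG was 1.95 in B-like and 1.59 in cDC1-like cells and 0.535 in neutrophil-like cells (54 and 450 cells). Id2 with the combination against IgG was 1.5002 in CD8 T-like cells and 0.533 in neutrophil-like cells. Eomes with the combination was 2.28 times IgG in regulatory T-like cells and 0.641 in NK-like cells. Against anti-PD-1, the combination had Eomes at 7.26 in regulatory T-like cells, where anti-PD-1 held 3 UMIs, and at 0.653 in NK-like cells. The sub-cluster make-up of NK-like cells differed between the libraries in both Eomes cases. Zeb2 with the combination against anti-PSGL-1 was 1.54 in conventional CD4 T-like cells and 0.617 in neutrophil-like cells.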

How the results depend on the processing

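Under 14 other settings, 859 of 1000 ratios of the 8 genes stayed within the main counting interval and 141 moved, and none of those called turned its direction. The 1000 include Tbx21, Eomes and Irf4 in macrophage- and monocyte-like cells, all under 10 CPM. Intervals of Tbx21 and Eomes there were wide, so staying within them says little. The Eomes ratio of anti-PSGL-1 to IgG ran from 0.947 to 12.0 in these cells. Irf8 against IgG stayed at 1.43 to 2.62 (anti-PD-1) and 1.25 to 2.36 (combination) in CD8 T-like cells, and at 1.99 to 2.62 and 1.49 to 2.08 in macrophage- and monocyte-like cells. Of 135 counts of genes called, 118 stayed within 1.5 times. In CD8 T-like cells at the IgG make-up of sub-clusters, a setting chosen after seeing the data, the count went from 3 to 0 for anti-PD-1 and for the combination against IgG and from 4 to 1 (Prdm1) for the combination against anti-PSGL-1. Without the naive-like sub-cluster it went from 3 to 1 (Irf8) for the combination against IgG, and without cells with Mki67 or Top2a UMIs from 0 to 1 (Irf4) for the combination against anti-PD-1. In macrophage- and monocyte-like cells, anti-PD-1 against IgG went from 1 to 2 with TMM scaling, no doublet removal or per-cell marker gates (Id2 added), and to 3 with no minimum CPM. With no minimum, counts also went from 0 to 1 for anti-PSGL-1 and from 1 to 2 for the combination against IgG, from 0 to 1 for the combination against anti-PD-1 and from 1 to 4 against anti-PSGL-1; the genes added had under 10 CPM. The last comparison went from 1 to 2 with thinned cells, no doublet removal or gates, and the combination against IgG from 1 to 0 at the IgG make-up of clusters. The cause of these moves was not tested. Median-of-ratios scaling shifted all log2 ratios of the combination against anti-PSGL-1 in CD8 T-like cells by -0.12. No paired analysis was possible because each treatment has 1 library, and leaving out a library leaves nothing to compare. Depth limits Tbx21, Eomes and Irf4 in myeloid cells.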
